A study of Mus musculus with 360 samples.

Results

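Cluster 8 of the authors' annotation, which they named Reprogrammed Unknown 2, was described here cell by cell. It holds 17 of the 360 single cochlear cells of the series, 10 from GAP mice and 7 from control mice. It was set against a pool of control cells from the authors' clusters 0, 3, 4 and 6, whose names all begin with WT, with 80, 29, 29 and 20 cells. The members were taken from the deposited cluster assignments, which cover 341 cells and leave 19 without a cluster. GAP mice had the Fbxo2CreERT2 driver, in which the Fbxo2 locus supplies a Cre that acts once tamoxifen is given, the Rosa26-tdTomato reporter and a Rosa26-GAP allele. That allele encodes 3 factors of hair cell formation, Gfi1, Atoh1 and Pou4f3. Control mice carried Fbxo2CreERT2 and Rosa26-tdTomato without the GAP allele. Both genotypes received tamoxifen at 3 weeks of age and were killed for cell collection at 5 weeks. Cells were sorted on tdTomato and EpCAM, an epithelial surface protein, so both sets had passed a gate set by the activity of the same Cre driver.

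The cochlear duct is lined by epithelial cells of many kinds. Around the hair cells and their supporting cells lie the cells of the inner sulcus, which make proteins of the tectorial membrane, and on the outer side the Hensen, Claudius, outer sulcus and root cells, many of which make pendrin, the anion exchanger encoded by Slc26a4. The remaining walls of the duct are Reissner's membrane, a thin epithelial sheet, and the stria vascularis, whose marginal cells secrete potassium into the endolymph. Each of these types has marker genes, and the question put to cluster 8 was which of them its cells carry.

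The cells of cluster 8 were at least as deeply counted as the pool. A GAP cell of the cluster held a median of 25048 unique molecular identifiers (UMIs, each standing for 1 captured transcript; 15346 to 30989), a control cell of the cluster 29516 (21027 to 36408) and a pool cell 19822 (8192 to 55129). Animals are not named in the labels, so each genotype counts as 1 sample, cells are not replicates and no test was made. The cluster was also formed from these same counts, so every comparison of it with the pool is a description. Levels are the summed UMIs of all cells in a set, scaled to 1000000 UMIs (CPM), and 95% intervals, given in parentheses, cover counting error only. Title letters, read here as plates, split the cluster unevenly. The GAP cells were 5 of letter C and 5 of letter D, while 6 of the 7 control cells were of letter A and 1 of letter B, and letter and genotype cannot be told apart.

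The genes of the GAP allele were found in the GAP cells of the cluster and in none of its control cells. Atoh1 was at 65.5 CPM (37.4 to 106.3) in the GAP cells, with a UMI in 8 of 10, and Pou4f3 at 53.2 CPM (28.3 to 90.99), with a UMI in 9 of 10. Gfi1 had 2 UMIs, 8.19 CPM, in 2 GAP cells. The control cells of the cluster had 0 UMIs of Atoh1, Pou4f3 and Gfi1, where 3 counts would be 14.5 CPM, and the pool had 0, 0 and 1 UMI. Genotype labels and these genes thus go together in the cluster. The level was far below that of the GAP clusters 1 and 2, which had Atoh1 at 1097 and 815 CPM, and lay in the range of the few GAP cells found in clusters 0, 3, 4 and 6, at 43.8 to 137.99 CPM. The name Reprogrammed is therefore not borne out by these values for the 7 control cells, which carry no GAP allele per the labels, and the text below refers to the cells by the cluster's number. Fbxo2 was at 176.01 CPM in the GAP cells and 227 CPM in the control cells of the cluster, against 719 CPM in the pool. Its transcript was found in all 17 cells. Epcam was at 315 CPM in GAP cells, 280.2 CPM in control cells and 191 CPM in the pool.

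Both genotypes of cluster 8 shared a set of genes that stood well above the pool. It was led by Kdr, Anxa1, Irx1, Tbx3os1 and Dpp10, which the pool nearly lacked. Other genes of the set were plainly present in the pool, such as Anxa5 at 919.26 CPM and Tmem176b at 363.12 CPM. A gene was called high in both where it reached 100 CPM and stood at least 4-fold over the pool, as a log2 ratio with 1 CPM added, in the GAP cells and again in the control cells. Of 1760 genes at 100 CPM in both sets, 71 were called (4.03%). Taken alone, the GAP cells had such a ratio in 6.5% of 2400 genes and the control cells in 7.15% of 2404, so the shared genes made up 45.5% of the GAP and 41.3% of the control set. Both ratios use the same pool cells. Of the 71 genes, 61 had a UMI in at least 5 GAP and 4 control cells and no cell with more than 50% of the UMIs. The 10 that missed these conditions are Meis1, Itgb3, Ecel1, Hivep3, Dlc1, Cldn22, Cited1, AU021092, Bpifb3 and Grem1. The count was 40 without the cells of letter A, which leaves B37 as the only control cell in the cluster. B37 had no UMI of Dpp10, Spns2, Mall, Otx1, Ltbp1, Fut9, Ppp1r12b or Kdr, which are named below, so these rest on control cells of 1 letter. Against each of the 4 pooled clusters on its own, 38 genes were past 4-fold every time, among them all 25 that are named below by the size of the smaller ratio.

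**Figure D1:**
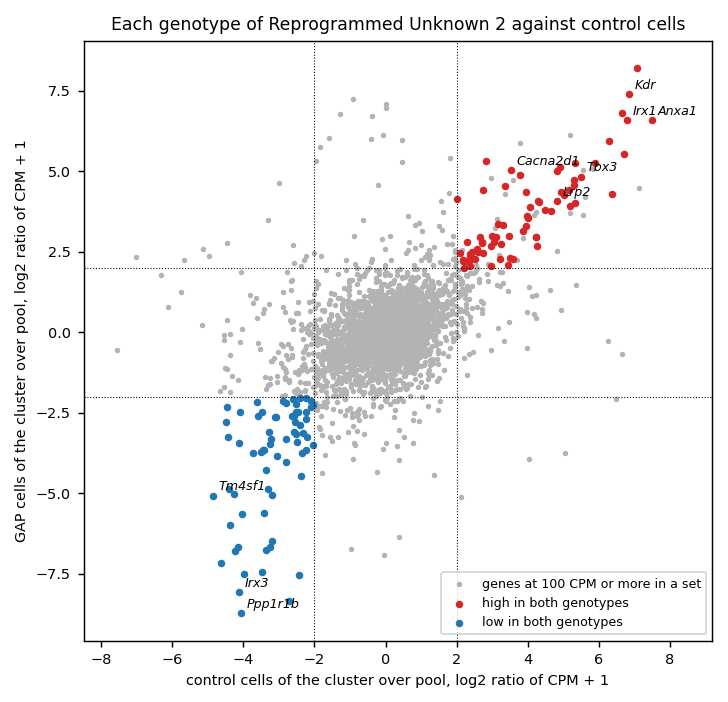
Log2 ratio of CPM + 1 over the pool of control cells, for the 10 GAP cells (vertical axis) and the 7 control cells (horizontal axis) of cluster 8. Each point is a gene at 100 CPM or more in a set, dotted lines mark 4-fold, red points are the 71 genes high in both genotypes and blue points the 67 low in both.

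Lrp2 and Lrpap1, a receptor and its chaperone, were both among the shared genes. Lrp2 encodes megalin, a large endocytic receptor of absorptive epithelia. Its lowest, median and highest levels were 65.2, 2485 and 5905 CPM over the GAP cells, 2356, 4285 and 6289.9 CPM over the control cells and 0, 48.9 and 9822 CPM over the pool cells. All 17 cells carried it, every one above the pool's median, and the ranges overlap. Pool cell B62 stood above all 17, at 9822 CPM, and pool cell A71, at 806 CPM, above the GAP cells C59, D29 and D61. The summed level was 16.98-fold (15.1 to 19.1) over the pool in GAP cells and 28.5-fold (25.5 to 31.9) in control cells. Lrpap1, the chaperone that escorts receptors of this family through the secretory pathway, was at 999 CPM in GAP cells, 1111 CPM in control cells and 128.9 CPM in the pool. It was found in 16 of the 17 cells, so that megalin and its chaperone were carried together in all but 1.

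Tmem176a and Tmem176b, neighbouring genes for membrane-spanning proteins, were carried by all 17 cells. Tmem176a ranged from 138.1 to 3776 CPM with a median of 1163 in GAP cells, from 204 to 4777 CPM with a median of 2330.3 in control cells, and from 0 to 770.1 CPM with a median of 0 in the pool. It stood above every pool cell in 12 of the 17 cells. The ratio to the pool was 24.2 (20.4 to 28.9) in GAP and 40.02 (34.01 to 47.2) in control cells. Tmem176b was at 3230 CPM in GAP cells, 5329 CPM in control cells and 363 CPM in the pool, and 14 of the 17 cells lay above every pool cell. The annotated genes overlap by 578 bases on opposite strands of chromosome 6, and since the use of strand in counting is not given in the sources used here, reads in the overlap cannot be told apart.

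Enpep, Mme and Dpp10, peptidases of the cell surface or their relatives, were also high in both genotypes. Enpep, the aminopeptidase that removes acidic residues from peptides such as angiotensin II, had levels of 0, 874 and 2291 CPM (lowest, median, highest) in GAP cells, 744, 1593 and 3329 CPM in control cells and 0, 0 and 2517 CPM in the pool. It was carried by 7 of 10 GAP cells, 7 of 7 control cells and 40 of the pool cells, and 3 GAP cells were at 0 like most of the pool. Only A43 stood above every pool cell. The ratio was 27.1 (21.7 to 33.9) in GAP and 40.7 (32.9 to 50.7) in control cells. Mme, neprilysin, which degrades peptides at the cell surface, was at 405 CPM in GAP cells and 570.1 CPM in control cells, against 50.2 CPM in the pool. Dpp10, a relative of dipeptidyl peptidases without enzyme activity that modulates potassium channels, was at 126.9 CPM in GAP cells, 198 CPM in control cells and 2.32 CPM in the pool. It was carried by 6 GAP and 6 control cells, and by 8 of the pool cells.

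Kdr, the receptor for vascular endothelial growth factor known from endothelium, had the largest smaller ratio of all. It ranged from 0 to 2354 CPM with a median of 80.2 in GAP cells, from 0 to 949 CPM with a median of 310.1 in control cells, and from 0 to 90.4 CPM in the pool, where 6 cells carried it. In the cluster 6 GAP and 4 control cells carried it, and 8 of these stood above every pool cell. The summed level was 266-fold (118.3 to 739) over the pool in GAP cells and 183-fold (79.8 to 517) in control cells, with 6 UMIs in the pool. Other defining endothelial genes, Cdh5, Emcn, Cldn5 and Flt1, had no UMI in any of the 17 cells.

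Several of the shared genes encode transcription factors of the homeobox and T-box families. Tbx3, a T-box repressor, had levels of 0, 832 and 1585 CPM (lowest, median, highest) in GAP cells, 279, 1324 and 2665 CPM in control cells and 0, 0 and 839 CPM in the pool. It was carried by 16 of 17 cells, and 11 of them stood above every pool cell. The ratio was 29.5 (23.1 to 37.99) in GAP and 46.7 (36.9 to 59.5) in control cells. Tbx3os1, an antisense transcript that overlaps Tbx3 by 697 bases on chromosome 5, was at 487 CPM in GAP cells, 618 CPM in control cells and 6.97 CPM in the pool, and all 14 cells that carried it also carried Tbx3. As with the Tmem176 genes, reads in the overlap cannot be assigned to a strand here. Tbx1, a T-box factor required for the formation of the ear, was at 114.6 CPM in GAP cells, 115.9 CPM in control cells and 13.6 CPM in the pool.

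Irx1, Otx1 and Meis2 encode homeobox factors. Irx1, of the Iroquois family, was at 151.45 CPM in GAP cells and 173.9 CPM in control cells, with 2 UMIs in the whole pool, and was carried by 6 GAP and 5 control cells. Otx1, an orthodenticle factor with a known part in shaping the mouse inner ear, was at 344 CPM in GAP cells, 401 CPM in control cells and 19.4 CPM in the pool, and was carried by 15 of 17 cells. Meis2, a TALE homeobox factor, was at 217 CPM in 9 GAP cells and 101.45 CPM in 4 control cells, against 6.39 CPM in the pool. Dach1, a nuclear corepressor, was carried by 5 GAP and 7 control cells, at 143.3 and 353 CPM, against 7.84 CPM in the pool. Bhlhe41, a basic helix-loop-helix repressor, was found in all 17 cells, at 594 CPM in GAP cells, 841 CPM in control cells and 87.9 CPM in the pool.

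Because such factors were among the shared genes, the 250 bases before the annotated starts were searched on both strands for short core letters. The letters were those of T-box, OTX and MEIS factors, and none were searched for Iroquois factors, Dach1 or Bhlhe41. The windows come from RefSeq on GRCm38.p6, and 19 of the 25 named genes matched an entry. The T-box letters GGTGTGA were in 0 of the 19, against 3.84% of the 27025 genes in the table, the OTX letters TAATCC in 1 (5.26%, against 7.21%) and the MEIS letters TGACAG in 3 (15.8%, against 17.95%). The shares are near those of all genes, and a match is only a match of letters. The windows of Enpep (chr3:129332750-129332999, minus strand) and Dach1 (chr14:98169766-98170015, minus strand) are shown because they hold the MEIS letters, in capitals and in Dach1 as the reverse complement, and overlap no annotated exon. The window of Dpp10 (chr1:124045560-124045809, minus strand) is shown beside them as one with none of the letters searched.
Enpep: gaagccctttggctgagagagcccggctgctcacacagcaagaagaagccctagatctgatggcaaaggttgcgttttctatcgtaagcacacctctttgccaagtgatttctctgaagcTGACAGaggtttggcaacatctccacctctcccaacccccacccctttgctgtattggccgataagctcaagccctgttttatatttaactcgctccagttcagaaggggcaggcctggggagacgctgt
Dach1: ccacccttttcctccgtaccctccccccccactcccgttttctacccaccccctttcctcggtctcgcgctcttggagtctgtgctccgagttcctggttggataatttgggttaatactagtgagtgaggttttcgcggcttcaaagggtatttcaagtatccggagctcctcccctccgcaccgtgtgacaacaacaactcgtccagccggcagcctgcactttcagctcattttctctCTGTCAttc
Dpp10: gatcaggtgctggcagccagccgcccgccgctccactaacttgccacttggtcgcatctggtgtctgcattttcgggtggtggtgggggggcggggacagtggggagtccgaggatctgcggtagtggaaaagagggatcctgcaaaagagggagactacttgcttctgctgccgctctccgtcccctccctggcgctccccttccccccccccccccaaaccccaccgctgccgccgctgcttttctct

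Anxa1, a calcium-dependent phospholipid-binding protein and the marker of Hensen, Claudius, outer sulcus and root cells with the highest ratio, was carried by only some of the cells. Its levels in GAP cells were 2605 CPM in C01, 2932 in C05, 1581 in C57, 65.2 in C59 and 900.2 in D37, and 0 in C46, D25, D29, D58 and D61. In control cells they were 1321 CPM in A23, 3014 in A36, 1379 in A43, 1984 in A45, 2554 in A83 and 1437 in B37, and 0 in A12. The 10 cells at 900.2 CPM or more were each far above the highest pool cell, at 100.9 CPM, while the other 7 cells lay within the pool's range. A UMI of Anxa1 was found in 50% of GAP cells (18.7 to 81.3, Clopper-Pearson), 85.7% of control cells (42.1 to 99.6) and 14.6% of pool cells, and in 40%, 85.7% and 6.33% after every cell was thinned to 8000 UMIs.

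**Figure D2:**
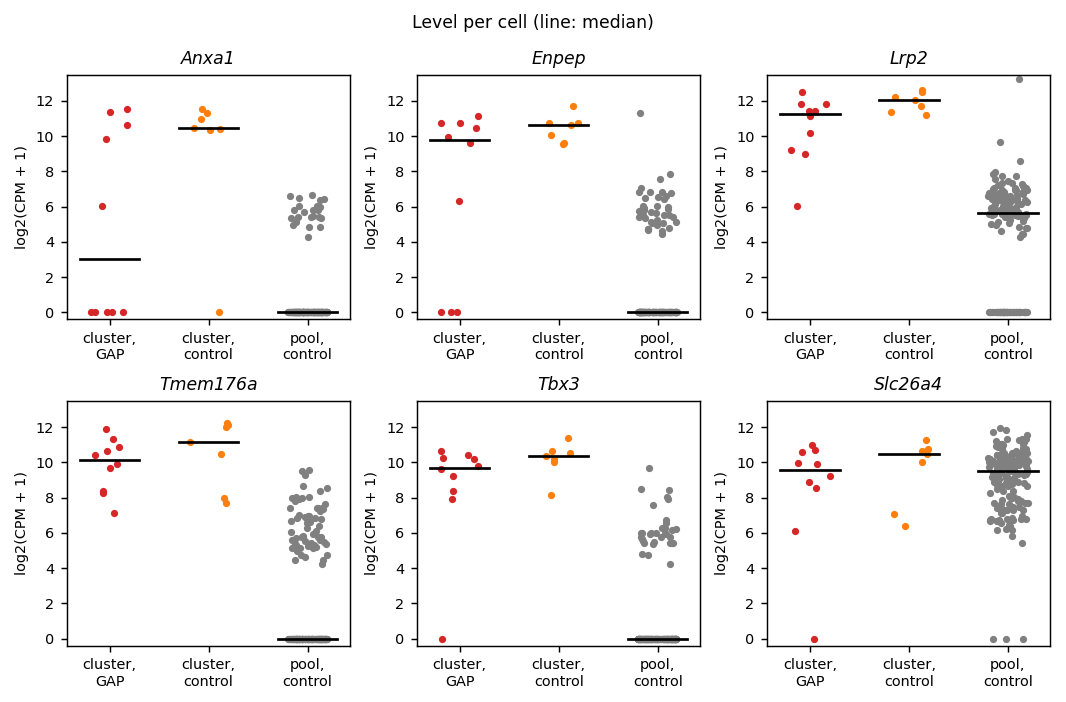
Level per cell of 5 shared genes and of Slc26a4, as log2(CPM + 1), in the 10 GAP and 7 control cells of cluster 8 and the pool cells, with lines at the median. Of the 17 cluster cells, 12 lie above every pool cell for Tmem176a, 11 for Tbx3, 10 for Anxa1 and 1 for Enpep, and for Slc26a4 all lie within the pool's range.

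Spns2, Sptssa and Abcg1 act on lipids. Spns2, which exports the lipid signal sphingosine 1-phosphate, was at 340 CPM in 8 GAP cells and 289.9 CPM in 5 control cells, against 8.71 CPM in the pool. Sptssa, a small subunit of the enzyme that starts sphingolipid synthesis, was at 524 CPM in GAP cells, 667 CPM in control cells and 41.5 CPM in the pool, and Abcg1, which exports cholesterol, at 122.8, 169.1 and 9.58 CPM.

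Matrix and surface proteins included Frem1, a protein of the basement membrane, at 794 CPM in GAP cells, 700.5 CPM in control cells and 23.5 CPM in the pool. Ltbp1, which holds latent TGF-beta in the matrix, was at 401 CPM in GAP cells and 299.5 CPM in control cells, against 18.6 CPM. Podxl, a sialomucin that coats apical membranes, was at 130.98 CPM in GAP cells, 222 CPM in control cells and 5.22 CPM in the pool. Frem1 was carried by 16 cells, Ltbp1 by 14 and Podxl by 13. Mall, a proteolipid of membrane rafts, was carried by 15 cells, at 503 CPM in GAP cells and 855 CPM in control cells, against 25.5 CPM in the pool.

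Galnt10, Fut9 and Fam20a act in glycosylation and secretion. Galnt10, which starts O-linked sugar chains, was carried by 15 cells and had levels of 102.3 CPM in GAP cells and 154.6 CPM in control cells, against 4.06 CPM in the pool. Fut9, a fucosyltransferase, was carried by 12 cells, with 130.98 CPM in the GAP cells and 242 CPM in the control cells, against 8.71 CPM. Fam20a, a pseudokinase of the secretory pathway, was likewise in 12 cells, with 102.3 CPM in the GAP cells and 164.25 CPM in the control cells, against 6.39 CPM. None of these 3 was found in every cell of either genotype except Galnt10 and Fam20a in the 7 control cells.

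Cacna2d1, Ppp1r12b and Meis2 had higher ratios in the GAP cells, whereas most other named genes had higher ratios in the control cells. Cacna2d1, an auxiliary subunit of calcium channels, was at 528 CPM in GAP cells and 184 CPM in control cells, 34.98-fold (25.2 to 49.2) and 12.2-fold (7.79 to 18.8) over the pool. Ppp1r12b, a targeting subunit of myosin phosphatase, was at 319 CPM in GAP cells and 140.1 CPM in control cells. Kif1a, a kinesin that moves vesicles along microtubules, was at 209 and 237 CPM, against 13.1 CPM in the pool.

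Atp1b2 and Atp2b4, parts of ion pumps, were high in both with smaller ratios. Atp1b2, a beta subunit of the sodium pump that marginal cells use, was carried by all 17 cells at 3668 CPM in GAP cells and 3203 CPM in control cells, against 355 CPM in the pool, 10.3-fold (9.48 to 11.3) and 9.03-fold (8.203 to 9.93). Pool cell B62 was at 17407 CPM, above all 17 cells, so the pool's level and these ratios depend in part on that cell. Atp2b4, a calcium pump of the plasma membrane, was at 483 and 469 CPM, against 46.7 CPM. Just inside the 4-fold limit was Gclc, at 143.3 CPM in GAP cells, 164.25 CPM in control cells and 34.8 CPM in the pool, and just outside it Lrrc75b, at 548, 821 and 136.7 CPM.

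The cells differed in how many of the 25 named genes they carried. The GAP cells carried 11 to 25 with a median of 20, the control cells 17 to 24 with a median of 22 and the pool cells 0 to 14 with a median of 3. After thinning to 8000 UMIs the medians were 17, 21 and 2. The summed level of the 25 genes was 12783 CPM in GAP cells, where single cells ran from 2716 in D29 to 22492 in C57, and 17541 CPM in control cells, from 10917 in A12 to 26033 in A36. The cluster's cells were chosen by the authors from such genes, so this separation is not an independent result.

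Among the pool cells 1 stood apart. Control cell B62, of the authors' cluster 3, had the 25 genes at 16288 CPM and carried 14 of them, while the median pool cell had 284 CPM. Its level lay above the median of the single GAP cells of cluster 8, 12412 CPM. It lay below the median of the single control cells of cluster 8, 19379 CPM. Without it the smaller log2 ratio to the pool was 5.92 in place of 4.72 for Enpep, 5.23 in place of 4.08 for Lrp2 and 5.49 in place of 4.84 for Frem1, and the count of genes high in both was 71 as before.

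**Figure D3:**
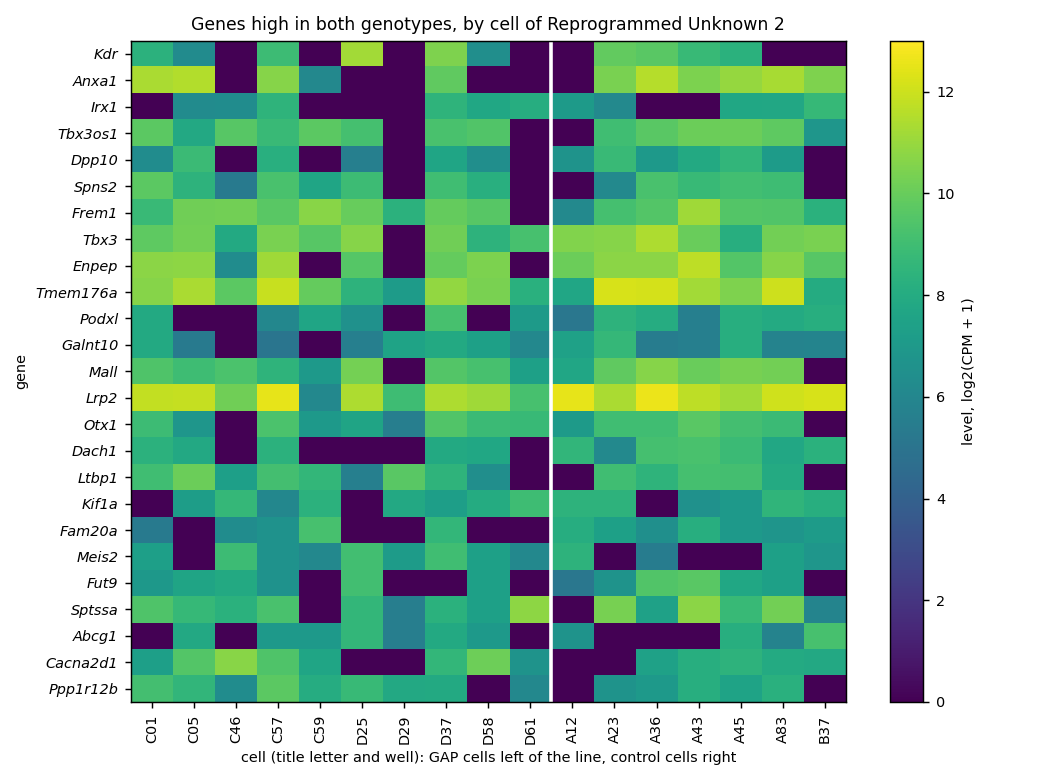
Level of the 25 named genes, as log2(CPM + 1), in each cell of cluster 8, with GAP cells left and control cells right of the white line. Lrp2 and Tmem176a are present in all 17 cells, and D29 carries the fewest of the genes, 11 of 25.

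Marker genes of known cochlear cells were then read for the same cells. None of the cochlear lists was carried as a whole, and no cell type name is given to the cluster. Of the 10 markers of Hensen, Claudius, outer sulcus and root cells, Anxa1 and Dpp10 were high in both genotypes, Fst was low in both, and Bmp4 and Aqp5 had no UMI in the 17 cells. The list's summed level was 3565 CPM in GAP cells, 4701 CPM in control cells and 4761 CPM in the pool. Kcnj16, a potassium channel subunit and the most abundant member in GAP cells and in the pool, was at 1203 CPM in GAP cells, 594 CPM in control cells and 2099 CPM in the pool. Slc26a4 was at 888 CPM (774 to 1015) in GAP cells, 1213 CPM (1067 to 1372) in control cells and 939 CPM in the pool, a level inside the interval of the GAP cells and below that of the control cells. Members of the list thus went in different directions, with Kcnj10, another potassium channel subunit, at 114.6 CPM in GAP cells, 261 CPM in control cells and 935 CPM in the pool. A UMI of Slc26a4 was found in 16 of the 17 cells, and all 11 cells with Anxa1 were among them.

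Of the 9 markers of strial marginal cells, only Atp1b2 was high in both genotypes. The list's summed level was 3778 CPM in GAP cells, 4058 CPM in control cells and 613 CPM in the pool, of which Atp1b2 was the larger share in each set. Kcnq1, the potassium channel of these cells, was at 28.7 CPM in 2 GAP cells and 96.6 CPM in 3 control cells, against 30.8 CPM in the pool. Esrrb, a nuclear receptor of the marginal cell, had 0 UMIs in GAP cells and 444 CPM in control cells, where 1292 CPM in A12 and 1493 CPM in B37 left 33.9 CPM in A23 and 0 in the other 4. The same pair of control cells, A12 and B37, also held most of the Wfdc18 UMIs, at 4897 and 930 CPM, and of Spp1, at 476 and 2564 CPM. Esrrb was thus high in a pair of control cells and low or at 0 in the other 15 cells. Pool cell B62 also had Esrrb at 1049 CPM, Spp1 at 19364 CPM and Atp1b2 at 17407 CPM. Over single pool cells the marginal cell list had a median of 288 CPM and a highest level of 28207 CPM.

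Reissner's membrane was represented by 5 markers. Meis2 alone was high in both genotypes, and the list's summed level was 729 CPM (625.48 to 844) in GAP cells, 237 CPM (175.12 to 313) in control cells and 105.07 CPM in the pool. Vmo1 was at 282 CPM in GAP cells, from 1830 CPM in C46, 638 in D61, 144.09 in D25 and 38.1 in C05, and Slc26a7 at 40.9 CPM in 3 GAP cells. The control cells of the cluster had 0 UMIs of Vmo1 and of Slc26a7, where 3 counts would be 14.5 CPM. Vmo1 and Slc26a7 were carried by GAP cells and not by control cells of the cluster, and so do not belong to the shared set. Lmx1a, another marker of the list, was carried by some cells of both genotypes without being called high in both. Its highest levels were 665.39 CPM in GAP cell D37 and 643.72 CPM in control cell A23, which held most of its control UMIs.

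Connexins and several genes of the inner sulcus were lower than the pool in both genotypes, while other genes of these lists were not. Gjb2 and Gjb6, the connexins that couple cochlear supporting cells, were at 45.03 and 4.09 CPM in GAP cells and 135.3 and 48.3 CPM in control cells, against 1355 and 453 CPM in the pool. Epyc, Otoa and Ceacam16, genes of the tectorial membrane and its secreting cells, were at 147.35, 135.1 and 4.09 CPM in GAP cells, 353, 96.6 and 57.97 CPM in control cells and 2448, 844 and 936 CPM in the pool. The inner sulcus list as a whole was at 2317 CPM in GAP cells, 725 CPM in control cells and 6040 CPM in the pool, and at 1303 CPM in GAP cells without D29. Over its 9 members at 10 CPM or more in any set the median log2 ratio to the pool was 0.45 in GAP cells and -3.11 in control cells. Otogl, which encodes otogelin-like, was at 282 CPM in GAP cells, 53.1 CPM in control cells and 177.93 CPM in the pool, and Col9a2, a collagen chain, at 81.9, 0 and 28.7 CPM. Lgr5, a receptor of Deiters and pillar cells, was at 32.7 CPM in GAP cells, 28.99 CPM in control cells and 290.0 CPM in the pool, while Hey2, a Notch target of pillar cells, was high in both at 110.5 and 135.3 CPM, against 16.5 CPM. Sox9 and Sox10, factors of the otic epithelium, were at 810.5 and 929 CPM in GAP cells and 865 and 1473 CPM in control cells, against 902 and 1474 CPM in the pool, and were found in all 17 cells.

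The hair cell list of 15 genes was at 945.5 CPM in GAP cells, 372 CPM in control cells and 395 CPM in the pool, and Ccer2, described below, gave 270.2 CPM of the GAP level. Over its 11 members at 10 CPM or more in any set the median log2 ratio to the pool was 1.61 in GAP cells and -0.54 in control cells. Calb2 and Slc17a8, genes of inner hair cells, had no UMI in the 17 cells. The general supporting cell list was at 5706 CPM in GAP cells and 6029 CPM in control cells, against 11371 CPM in the pool. The tuft cell list stood above the pool in both genotypes, at 622 CPM in GAP cells, 1193 CPM in control cells and 282 CPM in the pool. All of it in the 17 cells came from Dclk1, a kinase that binds microtubules, while Trpm5, Pou2f3, Avil, Gnat3 and Ltc4s had no UMI in them. Keratins and claudins of simple epithelia were at 2092 CPM in GAP cells, 1642.5 CPM in control cells and 1159 CPM in the pool. The mucosal secretory list was at 589 CPM in GAP cells, 86.96 CPM in control cells and 151.2 CPM in the pool, with 52.5 CPM in control cells without B37. Its most abundant member, Bpifa1, differed between letters of the same genotype. It was at 533 to 1042 CPM in letter C cells, 0 to 288 CPM in letter D cells, 254 CPM in B37 and 0 in letter A cells. Most pool cells of letter A were likewise at 0, while most of letter B carried it. The cell cycle list was at 347.9 CPM in GAP cells, 43.5 CPM (19.9 to 82.5) in control cells and 44.99 CPM in the pool. Cell D61 held 57 of its 85 UMIs in GAP cells, and without that cell the level was 130.5 CPM. In control cells it was 28.2 CPM without A23.

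The Schwann and satellite glia list of 11 genes was at 1154 CPM in GAP cells, 1739 CPM in control cells and 1615 CPM in the pool, mostly from Sox10. Mbp, a myelin protein, was at 94.1 CPM in 8 GAP cells and 96.6 CPM in 5 control cells, against 60.96 CPM in the pool, while Fabp7, Mag and Foxd3 had no UMI in the 17 cells. Other lists of cell types from outside the duct's epithelium left few UMIs. The leukocyte list of 12 genes had 1 UMI in the GAP cells, 1 UMI in the control cells and 54 in the pool, the fibroblast list of 10 genes 3, 4 and 1242, and the skeletal muscle list 0, 0 and 4. The endothelial list was at 467 CPM in GAP cells and 324 CPM in control cells, of which Kdr made up 463 and 319 CPM, and at 291 CPM in GAP cells without D25. The melanocyte and intermediate cell list had 1 UMI in GAP cells and 22 UMIs in control cells, 106.3 CPM, against 11.6 CPM in the pool, with Tyr, Tyrp1 and Mlana at 0. Immediate early genes were at 6770 CPM in GAP cells, from 167.85 to 24419 CPM between cells, and 2672 CPM in control cells, or 1774 CPM without A45, against 9398 CPM in the pool. Mitochondrially encoded transcripts were at 14711, 13986 and 13914 CPM. Their part in the differences above was not tested.

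**Figure D4:**
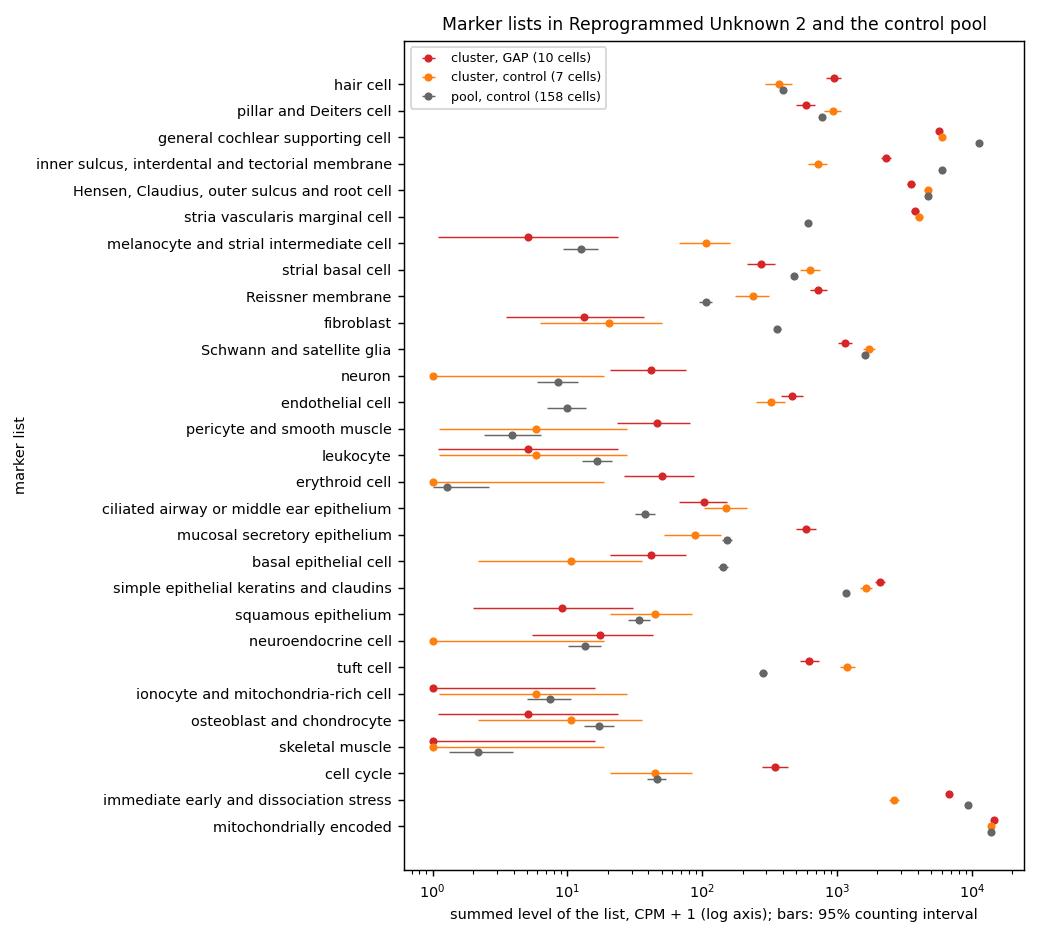
Summed level of each marker list, as CPM + 1 on a log axis, in the GAP and control cells of cluster 8 and in the pool, with 95% counting intervals. The marginal cell, endothelial and tuft cell lists lie above the pool in both genotypes through Atp1b2, Kdr and Dclk1. Other lists above it in both include those of Reissner's membrane, simple epithelia and ciliated epithelium. Of the 13 genes of the ciliated list, 6 had a UMI in GAP cells and 2 in control cells, where most UMIs were of Cfap43. Lists below it include the inner sulcus, general supporting cell and fibroblast lists.

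Genes low in both genotypes numbered 67 of the 2332 genes at 100 CPM in the pool (2.87%). Only 7 of them were past 4-fold against each of the 4 pooled clusters taken separately, so the low set depends on which clusters form the pool. Ppp1r1b, an inhibitor of protein phosphatase 1, had 0 UMIs in GAP cells and 24.2 CPM in control cells, against 423 CPM in the pool, at least 34.5-fold and 17.5-fold (7.49 to 54.04) lower. Irx3, an Iroquois factor and thus a relative of the shared gene Irx1, had 0 UMIs in GAP cells and 14.5 CPM in 3 control cells, against 268 CPM in the pool, where 71.5% of cells carried it. Its antisense neighbour Irx3os had 0 UMIs in GAP cells and 1 in control cells, against 101.9 CPM in the pool. The annotated Irx3 and Irx3os overlap on opposite strands of chromosome 8, so reads in the overlap cannot be assigned to a strand here. Mylk, myosin light chain kinase, was at 4.09 CPM in GAP cells, 28.99 CPM in control cells and 565 CPM in the pool.

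The other low genes named by size were Ttll3, a ligase that adds glycine to tubulin, at 24.6 CPM in GAP cells, 33.8 CPM in control cells and 740.2 CPM in the pool, and Tm4sf1, a surface protein with 4 membrane spans, at 8.19, 9.66 and 309 CPM. Lum, a matrix proteoglycan, was at 4.09 CPM in GAP cells, 14.5 CPM in control cells and 323 CPM in the pool. Sox11, a factor of immature cells, was at 8.19 CPM in GAP cells, 14.5 CPM in control cells and 299.6 CPM in the pool. Against the control cells of cluster 4 alone, the log2 ratio nearer to 0 was -0.92 for Sox11, -1.32 for Mylk and -1.66 for Ppp1r1b, and against those of cluster 3 alone it was -1.43 for Ttll3 and -1.07 for Mylk.

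Between the genotypes of cluster 8, 5.19% of 3044 genes were at least 4-fold higher in GAP cells and 3.88% at least 4-fold lower. These genes are not part of the shared set, and with 10 and 7 cells of 1 sample each they describe these cells. Ccer2, a coiled-coil gene of hair cells, ran from 46.04 to 838 CPM over the GAP cells with a median of 176.03, and was at 0 in all 7 control cells. The summed level in GAP cells was 270.2 CPM, at least 18.6-fold higher. Ccer2 was also at 197 to 268 CPM in the GAP cells of clusters 0, 3, 4 and 6, and at 4659 CPM in the GAP cells of cluster 1. Tmem255b, a membrane protein gene, ran from 33.6 to 495 CPM over the GAP cells and was at 0 in the control cells, at least 13.3-fold higher by the summed level. The GAP and control cells do not overlap in either gene.

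Other differences between the genotypes rested on some of the cells. Otx2, an orthodenticle factor related to Otx1, was at 477 CPM in C46, 1108 in C59, 192 in D25, 414 in D29, 42.1 in D58 and 167.85 in D61, and at 0 in the other 4 GAP cells and in all 7 control cells. Only C59 carried both Otx2 and Anxa1, and 5 cells carried Otx2 without Anxa1. Slc39a8, a zinc and manganese importer, was at 4129 CPM in D61 and at 0 to 401 CPM in the other 9 GAP cells, with 0 UMIs in control cells. Pool cells ran from 0 to 941 CPM, so those 9 GAP cells lay within the pool's range. In cluster 0, Slc39a8 was at 453 CPM in the GAP cells and 34.2 CPM in the control cells. Epas1, a hypoxia-inducible factor, was at 1444 CPM in D61 and at 0 to 414 CPM in the other GAP cells. Otog, which encodes otogelin of the acellular membranes and was read as a listed marker, was at 8701 CPM in D29, 3845 CPM in C59 and 1242 CPM in D61, at 0 to 278 CPM in the other 7 GAP cells and at 0 to 140.9 CPM in control cells, against a median of 621 CPM in the pool.

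Genes lower in GAP cells were Slc41a3, Adnp2, Emc3, Irs3 and Cmtm4. Slc41a3, a magnesium transporter, had 0 UMIs in GAP cells and 251 CPM in control cells, of which B37 alone had 1183 CPM, and was at 14.2 CPM in the pool. Adnp2, a zinc finger protein, had 0 UMIs in GAP cells and 149.8 CPM in control cells. Emc3, a subunit of the complex that inserts proteins into the endoplasmic reticulum, had 0 UMIs in GAP cells and 115.9 CPM in 6 of 7 control cells, close to the pool's 119.6 CPM. Irs3, an insulin receptor substrate, had 0 UMIs in GAP cells and 106.3 CPM in control cells, against 80.98 CPM in the pool. Cmtm4, a membrane protein, had 2 UMIs, 8.19 CPM, in GAP cells and 169.1 CPM in control cells. The control level of Emc3, Irs3 and Cmtm4 was within 2-fold of the pool.

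**Figure D5:**
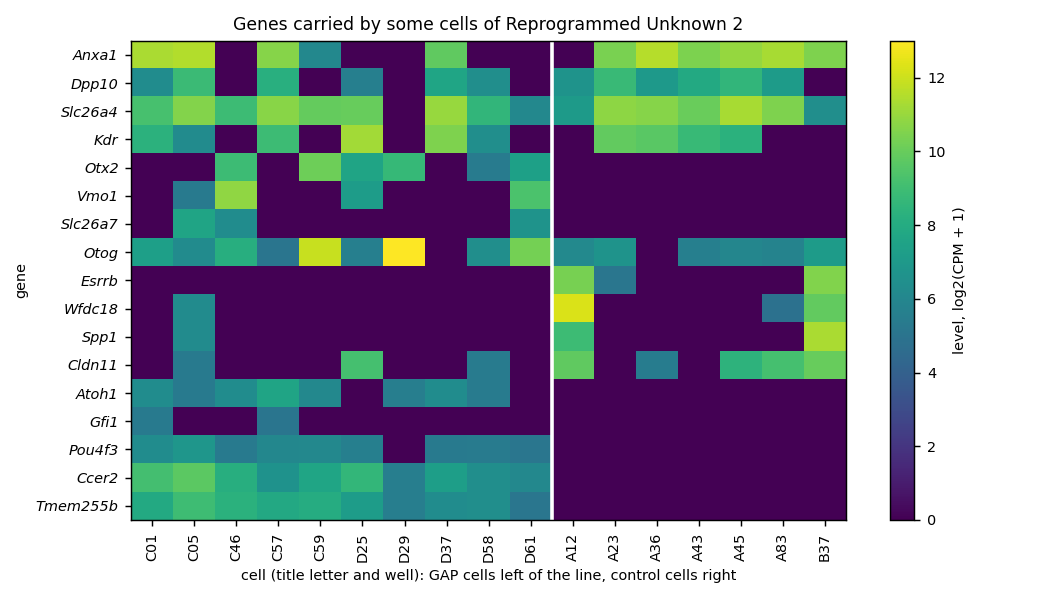
Level of genes carried by some cells, as log2(CPM + 1), in each cell of cluster 8, with GAP cells left and control cells right of the white line. Otx2 and Vmo1 appear in GAP cells, Esrrb is high in control cells A12 and B37, and Ccer2 and Tmem255b are in all 10 GAP and 0 of 7 control cells.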

How the data were processed

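Single cells from cochleae of 5-week-old mice were sorted into plates and made into libraries by SMART-MATQ, per the labels' protocols. The authors deposited 1 table of UMI counts over exons, with genes in rows and cells in columns and no normalization. STAR, HTSeq and mm10 are named in the submitters' processing notes. Not given in the sources used here are their versions, the annotation, the collapsing of UMIs and any use of strand in counting. Every count column matched 1 sample title, and the authors' deposited cluster numbers and names were used as given. No doublet caller was run on these singly sorted cells.

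UMIs were summed per set of cells and scaled to CPM (Python 3.11.15, numpy 2.4.6, pandas 2.3.3, scipy 1.17.1). Levels have exact Poisson, ratios exact conditional-binomial and shares exact Clopper-Pearson 95% intervals, which cover counting error only. Bounds against 0 UMIs use 3 counts over the set. The ratio computation was tested on simulated data. A cluster against other cells is a description, and no test was made. Named genes are the 25 with the largest smaller log2 ratio among those high in both genotypes that met the cell conditions, the 8 lowest among those low in both with a UMI in at least 50% of the pool cells, the 5 largest ratios each way within the cluster with a UMI in at least 50% of the higher genotype's cells, and Atoh1, Gfi1, Pou4f3, Fbxo2 and Epcam. Members of the marker lists, and others of the 61 genes, are named as examples. Promoter windows come from RefSeq (GRCm38.p6) and gene overlaps from GENCODE M21. Members, lists, letters searched and rules were chosen with earlier results of these data known. TMM factors came from edgeR 4.0.16, an alternative scaling only.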

Additional observations from a re-analysis of the deposited data

Results flagged for a closer look

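GAP cells outside cluster 8 enter none of the comparisons, and in several clusters they held the 25 named genes above the level of the pool cells, which was 518 CPM (494 to 542). The summed level was 1089.5 CPM in the 4 GAP cells of cluster 0, 865 CPM in the 54 of cluster 1, 1839 CPM in the 51 of cluster 2, 2683 CPM in the 5 of cluster 3, 2389 CPM in the 13 of cluster 5, 1161 CPM in the 2 of cluster 6 and 1093 CPM in the 17 without a cluster. It was not above the pool in the 4 GAP cells of cluster 4, at 292 CPM (159.48 to 489), and the interval of the 20 of cluster 7, 549.9 CPM (474 to 634), includes the pool's level. All of these summed levels lie far below the 12783 CPM of the GAP cells of cluster 8. The 25 genes were chosen for being high in cluster 8, so that distance follows from the choice and is not an independent result. Single cells did overlap, as 17 of the 343 cells outside cluster 8 lay above its lowest cell, at 2716 CPM. In cluster 2 the GAP cell C36 reached 9249 CPM and carried 17 of the 25 genes. In cluster 3 the GAP cell D68 alone reached 8061 CPM.

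Ccer2 and Tmem255b differed between the genotypes of cluster 8 in every cell, though D29 had only 1 UMI of each. Their log2 ratios of GAP to control cells were 8.08 and 7.60, with every GAP cell above the pool's median and no UMI in any control cell. That difference was not tested, and genotype and title letter cannot be told apart. Neither gene was particular to the GAP cells of cluster 8, as all 4 GAP cells of cluster 0 carried both.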

How the results depend on the processing

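No paired analysis was possible because the labels number wells and not replicates, and no result comes from a test. Counts under other settings are given as multiples of the count reported. The 71 genes high in both became 0.592 times as many at a minimum of 200 CPM, 2.93 times with no filter on level, 2.35 times at 2-fold, 0.563 times without letter A, 1.94 times against cluster 4 alone and 0.535 times against each of the 4 clusters separately, and ran from 0.901 to 1.04 times with each cell left out in turn. The 67 low in both became 1.76 and 0.582 times as many at minimums of 50 and 200 CPM, 17.9 times with no filter, 3.21 times at 2-fold, 2.6 times against cluster 4 alone, 2.07 times against cluster 6 alone and 0.104 times against each of the 4 clusters, and ran from 0.97 to 1.09 times. The 276 genes apart between the genotypes became 2.04 times as many after thinning to 8000 UMIs, 2.66 and 0.283 times at minimums of 50 and 200 CPM, 16.5 times with no filter, 3.37 times at 2-fold, and 4.74, 1.68 and 1.53 times without letters A, C and D. Atoh1 was at 32.9 CPM without letter C, and Gfi1 at 0 CPM without letter C or after thinning. Without letter A, where B37 is the only control cell, the smaller log2 ratio was -0.64 for Dpp10, -2.46 for Spns2, -4.24 for Mall, -2.95 for Otx1, -4.24 for Ltbp1, -0.64 for Fut9 and -3.61 for Ppp1r12b, as well as 0.00 for Kdr and 0.80 for Sptssa. Of 375 recomputed ratios of the 25 high genes the other 366 stayed past 4-fold, and of those of the 8 low genes 5 fell short of 4-fold. TMM scaling moved the median log2 ratio of all genes at 10 CPM to -0.16 in GAP and -0.31 in control cells, against -0.04 and -0.17, and gave 60 high and 76 low genes. Leaving out B62, and single cells from the marker lists, was chosen after seeing the data. Depth limits genes with few UMIs: 3 counts are 12.3 CPM in the GAP cells, 14.5 CPM in the control cells and 0.871 CPM in the pool.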
